A study of Homo sapiens with 15 samples.

Results

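The genes described here are 33 of the 13243 genes of the deposited count table. With earlier results of these data known, they were chosen by name as enzymes and regulators of sterol and fatty acid synthesis in the SREBP pathway. They fall into 7 genes of the mevalonate steps, 11 of the steps from squalene to cholesterol, 6 that control SREBP or carry sterol, and 9 of fatty acid synthesis and desaturation. The first and second groups, 18 genes, are called the sterol arm, and the last group is called the fatty acid arm. All 33 had a row in the table and entered the test, with at least 96 reads in every library.

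RNA was sequenced from HEK293T cells, an established human embryonic kidney line that carries a viral T antigen, after 4 h of treatment. The groups were DMSO, the vehicle (3 libraries), IXA1 (2 libraries), IXA4 (3), IXA6 (3) and Tg (3). The series describes the IXA compounds as activators of IRE1/XBP1s, a branch of the unfolded protein response, and Tg is thapsigargin, which drains calcium from the endoplasmic reticulum (ER) and thereby switches on every branch. No dose is stated in the labels, so the compounds are compared at a matched time and unknown doses, in a single cell line. Per the labels' protocols the experiments were independent. All comparisons with DMSO share the same 3 DMSO libraries, so their results are given side by side and are not independent of each other.

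SREBP proteins are made as precursors in the ER membrane. When membrane sterol is low, the escort protein SCAP carries them to the Golgi, where proteases release the part that enters the nucleus. When sterol is plentiful, INSIG proteins hold SCAP and SREBP in the ER. The product of SREBF2 acts mainly on sterol genes, and the SREBP-1c form made from SREBF1 mainly on fatty acid genes. SREBP acts at sterol regulatory elements together with partners such as NF-Y, which binds CCAAT boxes.

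The promoters of 6 members are shown because these are the genes that changed the most in the sterol arm (HSD17B7, IDI1), in the fatty acid arm (FADS1) and among the sterol carriers and regulators (STARD4), a regulator called with all IXA compounds (INSIG1), and the member that held the searched sterol element (SREBF2). INSIG1 and SREBF2 were picked after their values or letters were seen. Sequences are from RefSeq (GRCh38.p14), from 250 bases before to 50 after the annotated start, 5′ to 3′ on the gene's strand. For IDI1, which has 3 listed starts, the window with the most CCAAT boxes is shown. Capitals mark matches on either strand to the CCAAT box (read as ATTGG where it lies on the opposite strand) or to TCACNCCAC, a form of the sterol regulatory element.
HSD17B7, chr1:162790452-162790751, plus strand: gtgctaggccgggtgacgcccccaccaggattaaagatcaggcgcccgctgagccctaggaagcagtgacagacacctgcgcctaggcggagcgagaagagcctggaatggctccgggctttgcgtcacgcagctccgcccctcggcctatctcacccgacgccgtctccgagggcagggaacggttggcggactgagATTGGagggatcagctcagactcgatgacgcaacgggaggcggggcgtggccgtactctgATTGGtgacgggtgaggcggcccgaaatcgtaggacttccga
IDI1, chr10:1048837-1049136, minus strand: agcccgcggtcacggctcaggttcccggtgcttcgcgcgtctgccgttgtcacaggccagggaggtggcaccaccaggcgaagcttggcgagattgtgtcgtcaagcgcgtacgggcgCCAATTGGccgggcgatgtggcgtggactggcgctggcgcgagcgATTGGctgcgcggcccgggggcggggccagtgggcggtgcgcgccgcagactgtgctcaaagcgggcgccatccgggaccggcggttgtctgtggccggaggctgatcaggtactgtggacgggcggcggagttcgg
FADS1, chr11:61816954-61817253, minus strand: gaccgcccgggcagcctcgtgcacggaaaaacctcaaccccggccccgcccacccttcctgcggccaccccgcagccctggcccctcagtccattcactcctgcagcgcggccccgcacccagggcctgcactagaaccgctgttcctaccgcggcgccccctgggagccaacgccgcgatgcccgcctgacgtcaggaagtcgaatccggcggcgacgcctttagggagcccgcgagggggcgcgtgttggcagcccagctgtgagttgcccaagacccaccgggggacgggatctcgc
STARD4, chr5:111512486-111512785, minus strand: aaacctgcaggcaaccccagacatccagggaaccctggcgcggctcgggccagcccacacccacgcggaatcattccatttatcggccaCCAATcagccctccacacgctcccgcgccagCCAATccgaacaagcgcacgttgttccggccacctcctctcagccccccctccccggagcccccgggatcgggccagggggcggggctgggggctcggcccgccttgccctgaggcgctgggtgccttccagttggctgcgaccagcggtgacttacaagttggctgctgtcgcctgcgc
INSIG1, chr7:155297628-155297927, plus strand: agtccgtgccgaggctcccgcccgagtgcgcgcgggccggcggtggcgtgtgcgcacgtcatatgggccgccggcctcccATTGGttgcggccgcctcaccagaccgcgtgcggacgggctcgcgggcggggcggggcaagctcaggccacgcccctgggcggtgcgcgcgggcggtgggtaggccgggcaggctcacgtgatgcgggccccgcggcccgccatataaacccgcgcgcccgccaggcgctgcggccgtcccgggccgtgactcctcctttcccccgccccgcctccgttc
SREBF2, chr22:41832855-41833154, plus strand: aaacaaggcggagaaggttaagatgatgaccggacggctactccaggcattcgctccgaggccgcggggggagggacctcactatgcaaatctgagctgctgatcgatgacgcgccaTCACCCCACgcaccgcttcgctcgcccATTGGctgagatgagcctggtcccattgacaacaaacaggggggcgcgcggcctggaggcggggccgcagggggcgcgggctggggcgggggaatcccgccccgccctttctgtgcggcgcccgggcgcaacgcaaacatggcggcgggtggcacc
Windows were found for 29 of the 33 members. CCAAT was present in 1 or more windows of 13 of 15 sterol-arm genes (86.7%) and of 5 of 8 fatty acid genes (62.5%), against 43.4% of the 10225 genes of the count table that have a window. TCACNCCAC was present for SREBF2 alone among the members (1 of 29, 3.45%, against 1.49% of the table's genes). CACGTG, the E-box, was present for 4 of 29 members (13.8%, against 12.6%). TGACGTGG, an element of unfolded protein response genes, was present for INSIG2 alone (3.45%, against 1.25%), and the ER stress element, which itself contains CCAAT, for 0 members and 0.166% of the table's genes. The printed FADS1 window held none of these motifs. Genes with several windows have more chances of a match, and a match is a description of letters, not of binding.

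The libraries held 14160321 to 15726742 counts, of which the 33 genes took 0.610% to 0.674%. The treatments left their mark on unfolded protein response genes. The chaperone HSPA5 was 1.56-fold, 1.62-fold and 1.63-fold higher with IXA1, IXA4 and IXA6 and 10.1-fold higher with Tg, and DNAJB9, a target of XBP1s, was 2.23-fold, 2.36-fold, 2.45-fold and 6.67-fold higher. XBP1 itself was 2.05-fold, 1.78-fold, 1.78-fold and 3.70-fold higher. DDIT3, which encodes the stress factor CHOP, was 19.3-fold higher with Tg and 1.38-fold higher with IXA6 (adjusted p = 0.0353), and with IXA1 and IXA4 it measured 1.22-fold and 1.15-fold without passing the test. All 8 of the genes listed as marking HEK293 cells were measured (3 rose and 2 fell with Tg, none passed with an IXA compound). Of the listed markers of liver, endothelium, fibroblasts and differentiated kidney, COL1A1 and LRP2 had a row, and neither passed the test with any treatment.

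All 3 IXA compounds raised IDI1 and INSIG1, by 1.18-fold to 1.31-fold, and none moved a gene of the fatty acid arm past the test. Tg raised 15 of the 33 genes and lowered 4, with the largest rises in STARD4 (2.84-fold), HSD17B7 (1.82-fold), IDI1 (1.68-fold), NSDHL (1.64-fold) and HMGCS1 (1.58-fold). SREBF1 fell with IXA4 and IXA6 and rose with Tg. A gene is called here when the edgeR quasi-likelihood test against DMSO gave a Benjamini-Hochberg adjusted p below 0.05 over all 13243 genes. CPM are counts scaled to a common library size with TMM factors, and fold changes are differences between group levels on the log2 scale.

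With IXA1, 5 members were called higher and 0 lower, where 1.82% of all genes were called higher and 0.491% lower. With IXA4, 2 were higher and 1 lower, against 0.717% and 0.0831% of all genes, and with IXA6 5 were higher and 1 lower, against 1.51% and 0.778%. With Tg, 15 were higher and 4 lower, against 18.8% and 17.0% of all genes. Under upper-quartile scaling factors the Tg counts were 12 higher and 5 lower among the members and 2032 higher and 2936 lower among all genes (2493 and 2253 with TMM), and the IXA4 counts were 2 higher and 0 lower. With TMM, the 4 falls with Tg, 12.1% of the members, lay below the share of all genes, and the rises, 45.5%, above it. Since the members were chosen with earlier results of these data known, this contrast is a description and was not tested. The median log2 fold change of the 33 genes was 0.07, 0.06, 0.07 and 0.15 with IXA1, IXA4, IXA6 and Tg, and that of all genes lay between -0.0077 and 0.00053. The log2 fold changes of the members with the IXA compounds ran from -0.32 to 0.40. Under a test against a minimum fold of 1.2, 0 members passed with any IXA compound and 7 passed with Tg. Among all genes 22, 21, 25 and 1396 passed with IXA1, IXA4, IXA6 and Tg. With so few of all genes passing with the IXA compounds, the 0 does not set the 33 members apart. With IXA1, leaving out any 1 of its 5 libraries left 1 or 2 members called, and with IXA4 leaving out any 1 of 6 left 1 or 2.

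**Figure D1:**
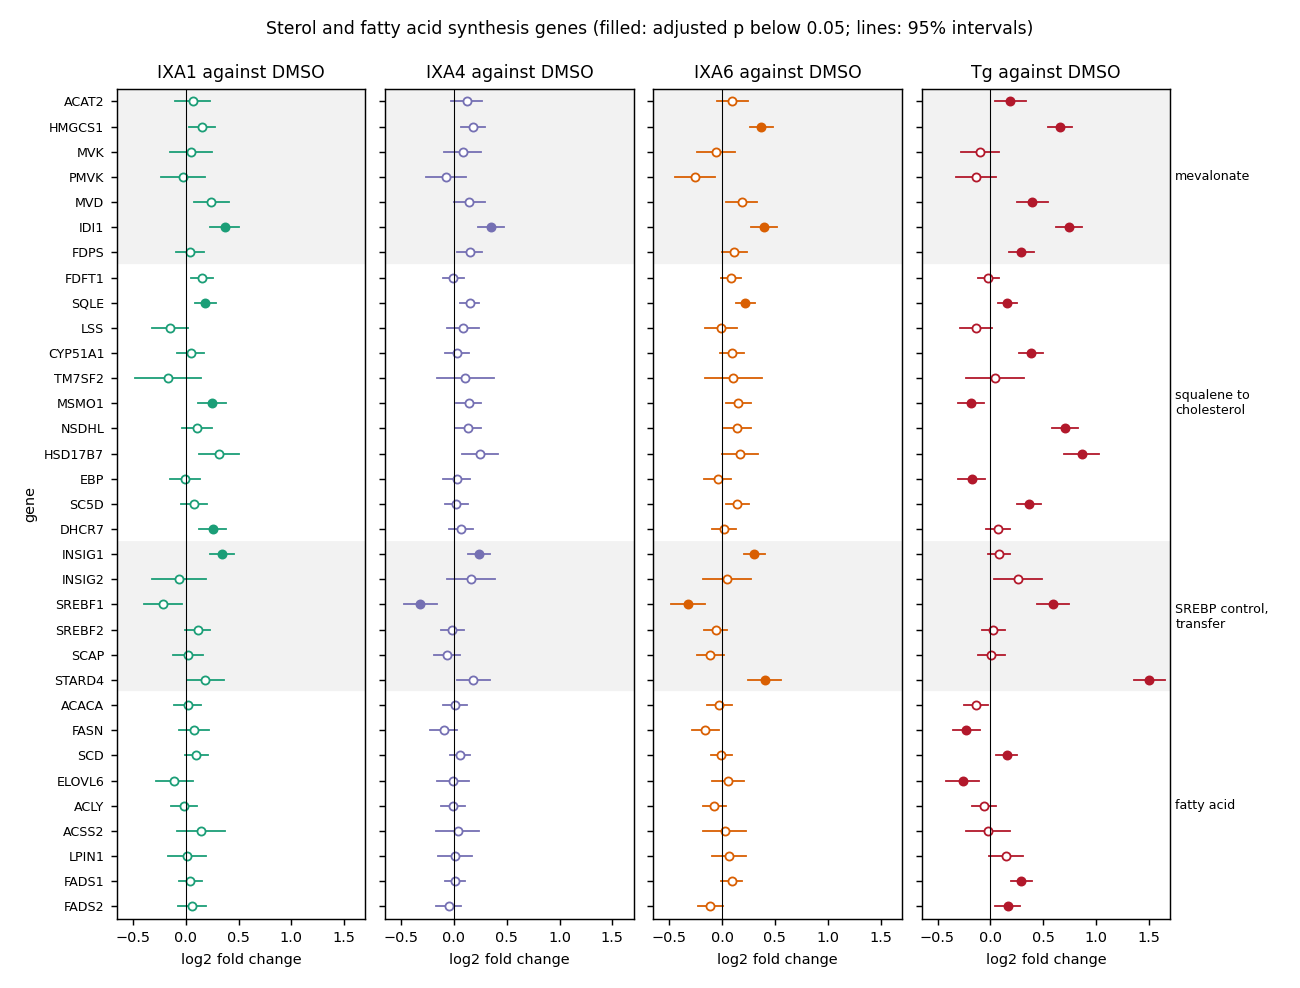
Log2 fold change of each of the 33 genes (rows, grouped by role) against DMSO for IXA1, IXA4, IXA6 and Tg, with 95% intervals as lines and genes with an adjusted p below 0.05 filled. IDI1 is filled in all 4 panels, the fatty acid genes are open in the 3 IXA panels, and SREBF1 lies left of 0 with IXA4 and IXA6 and right of it with Tg.

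Among the mevalonate genes, which turn acetyl-CoA into the isoprenoid farnesyl diphosphate, IDI1 was called with every compound and HMGCS1 with IXA6 and Tg. With Tg, 5 of the 7 were higher and 0 lower, against 18.8% and 17.0% of all genes. IDI1 encodes the isomerase that makes dimethylallyl diphosphate. IDI1 measured 297, 292 and 285 CPM with DMSO, 374 and 379 with IXA1, 384, 346 and 381 with IXA4, 415, 363 and 369 with IXA6 and 525, 444 and 498 with Tg. Every treated library lay above every DMSO library. Its log2 fold change was 0.37 ± 0.07 (SE, adjusted p = 0.00207) with IXA1, 0.35 ± 0.06 (SE, adjusted p = 0.00188) with IXA4, 0.39 ± 0.06 (SE, adjusted p = 3.09e-04) with IXA6 and 0.75 ± 0.06 (SE, adjusted p = 4.95e-10) with Tg. Without IXA1 replicate 2, where the fit assumes that the lone IXA1 library varies like the other groups, the IXA1 call was lost at a nearly unchanged log2 fold change (0.36, adjusted p = 0.0542).

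HMGCS1 encodes the cytosolic synthase that forms HMG-CoA. HMGCS1 measured 258, 273 and 285 CPM with DMSO, 291 and 314 with IXA1, 306, 307 and 309 with IXA4, 376, 338 and 342 with IXA6 and 459, 400.1 and 426 with Tg. The IXA1, IXA4, IXA6 and Tg libraries each stood above all DMSO libraries, but the difference passed the test only with IXA6, 0.37 ± 0.05 (SE, adjusted p = 2.00e-04), and Tg, 0.66 ± 0.05 (SE, adjusted p = 1.07e-09). With IXA1 and IXA4 it was 0.15 (adjusted p = 0.204) and 0.18 (adjusted p = 0.194), and a fit of the IXA4 and DMSO libraries alone called the latter (0.18, adjusted p = 0.0221).

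MVD encodes the decarboxylase that yields isopentenyl diphosphate. MVD measured 27.2, 28.8 and 26.2 CPM with DMSO, 35.2 and 29.6 with IXA1, 30.9, 31.7 and 28.4 with IXA4, 30.9, 30.6 and 31.9 with IXA6 and 35.1, 36.2 and 37.0 with Tg. All Tg libraries were above all others except IXA1 replicate 1, and the call was made with Tg, 0.40 ± 0.07 (SE, adjusted p = 1.13e-04). With IXA1, IXA4 and IXA6 the log2 fold changes were 0.24, 0.15 and 0.18 (adjusted p = 0.123, 0.559 and 0.18). ACAT2, the acetyl-CoA acetyltransferase that starts the pathway, was called with Tg at 0.19 ± 0.07 (SE, adjusted p = 0.0408), a call lost without any 1 of 5 of the 6 libraries (adjusted p of 0.0539 to 0.16) and with upper-quartile factors (0.103). The exons of ACAT2 overlap those of TCP1 and SOD2 on the other strand, and neither neighbour was called with Tg (log2 fold changes of 0.06 and -0.10). The kinases MVK and PMVK were called in no comparison with DMSO, and their log2 fold changes ran from -0.25 (PMVK with IXA6, adjusted p = 0.148) to 0.08 (MVK with IXA4).

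FDPS, the farnesyl diphosphate synthase, cannot be read apart from RUSC1-AS1, an antisense gene whose exons overlap it by 693 bases, since the sources used here do not say whether reads were counted by strand. FDPS measured 98.3, 102 and 99.8 CPM with DMSO, 103 and 103 with IXA1, 123, 105 and 105 with IXA4, 106, 114 and 105 with IXA6 and 120.2, 125 and 122 with Tg. RUSC1-AS1 measured 13.6, 13.9 and 17.0 CPM with DMSO, 16.6 and 17.7 with IXA1, 2.06, 16.3 and 16.7 with IXA4, 17.5, 1.72 and 15.2 with IXA6 and 2.32, 2.04 and 2.10 with Tg. RUSC1-AS1 was thus near 2 CPM in IXA4 replicate 1, IXA6 replicate 2 and all Tg libraries, and in those libraries FDPS was above every other library. The sum of both ran from 112 to 127 CPM over the 14 libraries. FDPS alone was called with Tg at 0.29 ± 0.06 (SE, adjusted p = 3.10e-04), while the sum gave 0.12 (adjusted p = 0.0484). For the sum, the log2 fold changes with IXA1, IXA4 and IXA6 were 0.06, 0.09 and 0.06 (adjusted p = 0.605, 0.573 and 0.535).

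**Figure D2:**
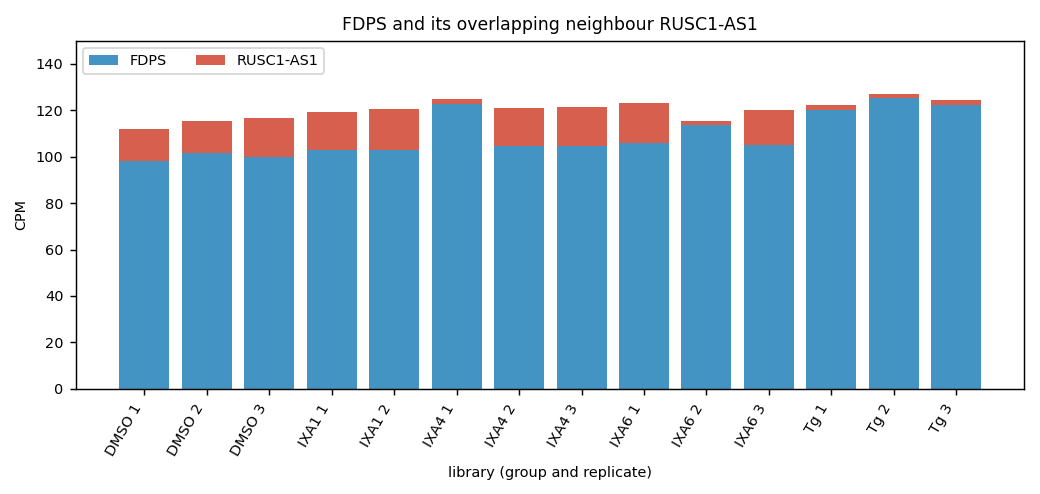
CPM of FDPS (blue) and of its antisense neighbour RUSC1-AS1 (red), stacked, in each of the 14 libraries named on the horizontal axis. The red segment is near 2 CPM in IXA4 replicate 1, IXA6 replicate 2 and the 3 Tg libraries, and the full bars stay between 112 and 127 CPM.

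Of the 11 genes from squalene to cholesterol, Tg raised 5 and lowered 2, against 18.8% and 17.0% of all genes. IXA1 raised 3 (SQLE, MSMO1, DHCR7), IXA6 raised SQLE, and IXA4 raised none past the test. Among all genes 1.82%, 1.51% and 0.717% were called higher with IXA1, IXA6 and IXA4. For 11 genes the 0 with IXA4 is near that share. With IXA4, 10 of the 11 had a log2 fold change above 0 (median 0.08), where 6529 of all 13243 genes did. The count by DESeq2 added SQLE with IXA4 (0.15, adjusted p = 0.0285). The largest rises were in HSD17B7 and NSDHL, a reductase and a dehydrogenase that act in turn in removing the methyl groups at carbon 4 of the sterol ring. HSD17B7 measured 17.3, 18.5 and 18.4 CPM with DMSO, 24.6 and 20.5 with IXA1, 20.7, 20.3 and 23.4 with IXA4, 20.0, 19.3 and 21.6 with IXA6 and 33.4, 33.1 and 32.2 with Tg. The Tg libraries stood well above all others, and the IXA libraries all stood above DMSO. The log2 fold change was 0.87 ± 0.08 (SE, adjusted p = 6.84e-09) with Tg, and 0.32, 0.25 and 0.17 with IXA1, IXA4 and IXA6, which did not pass the test (adjusted p = 0.0694, 0.261 and 0.307). HSD17B7 has a near-identical pseudogene without a row in the table, so its level is uncertain.

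NSDHL measured 87.2, 89.3 and 88.8 CPM with DMSO, 94.3 and 96.0 with IXA1, 94.0, 98.4 and 98.4 with IXA4, 99.0, 93.9 and 100.3 with IXA6 and 128, 155 and 151 with Tg. All IXA libraries lay above all DMSO libraries by a margin that did not pass the test (log2 fold changes of 0.11 to 0.14), and all Tg libraries lay above these, at 0.71 ± 0.06 (SE, adjusted p = 1.36e-09). MSMO1, the oxidase that acts at the same carbon before NSDHL, went the other way with Tg. MSMO1 was called higher with IXA1, 0.25 ± 0.06 (SE, adjusted p = 0.0406), and lower with Tg, -0.18 ± 0.06 (SE, adjusted p = 0.0191). The IXA1 call was lost without any 1 of its 5 libraries (adjusted p of 0.0531 to 0.348), and leaving out DMSO replicate 3 (adjusted p = 0.0834) or Tg replicate 2 (0.0542) ended the Tg call.

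CYP51A1, the lanosterol demethylase, and SC5D, a desaturase near the end of the pathway, rose with Tg. CYP51A1 measured 135, 134 and 148 CPM with DMSO, 138 and 149.5 with IXA1, 143, 140.1 and 142 with IXA4, 159.5, 146 and 139 with IXA6 and 176, 179.5 and 188 with Tg. SC5D measured 244, 242 and 256 CPM with DMSO, 254 and 268 with IXA1, 247, 249 and 257 with IXA4, 293, 266 and 261 with IXA6 and 342, 300.3 and 314 with Tg. For both genes the Tg libraries lay above all others. CYP51A1 changed by 0.38 ± 0.05 (SE, adjusted p = 5.53e-06) and SC5D by 0.37 ± 0.05 (SE, adjusted p = 7.16e-06), and with the IXA compounds the range was 0.02 (SC5D, IXA4) to 0.14 (SC5D, IXA6) without a call.

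SQLE, the squalene epoxidase that sets the pace of the later pathway, was the gene of this group that passed the test most often. SQLE measured 448, 436 and 421 CPM with DMSO, 489 and 499.8 with IXA1, 488, 481 and 477 with IXA4, 514, 487 and 516 with IXA6 and 484, 472 and 501 with Tg. All treated libraries stood above all DMSO libraries, and the log2 fold changes were similar in size, 0.19 ± 0.05 (SE, adjusted p = 0.043) with IXA1, 0.22 ± 0.04 (SE, adjusted p = 0.00689) with IXA6 and 0.16 ± 0.04 (SE, adjusted p = 0.00583) with Tg, beside 0.15 (adjusted p = 0.16) with IXA4. Without any 1 of its 5 libraries the IXA1 call was lost (adjusted p of 0.0556 to 0.309), and without DMSO replicate 3 the IXA6 call (0.0537). DHCR7, which makes cholesterol from 7-dehydrocholesterol, was called with IXA1, 0.25 ± 0.06 (SE, adjusted p = 0.0288), again not without any 1 of the 5 libraries (adjusted p of 0.0586 to 0.215). EBP, a sterol isomerase, was called lower with Tg at -0.18 ± 0.06 (SE, adjusted p = 0.0303), but without DMSO replicate 3 or Tg replicate 1 it did not pass (adjusted p = 0.255 and 0.0844), nor in a fit of the Tg and DMSO libraries alone (0.0686). The synthases FDFT1 and LSS and the reductase TM7SF2 were called in no comparison with DMSO, with log2 fold changes from -0.16 to 0.16. LSS passed with Tg when Tg replicate 2 was left out (-0.22, adjusted p = 0.0218).

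**Figure D3:**
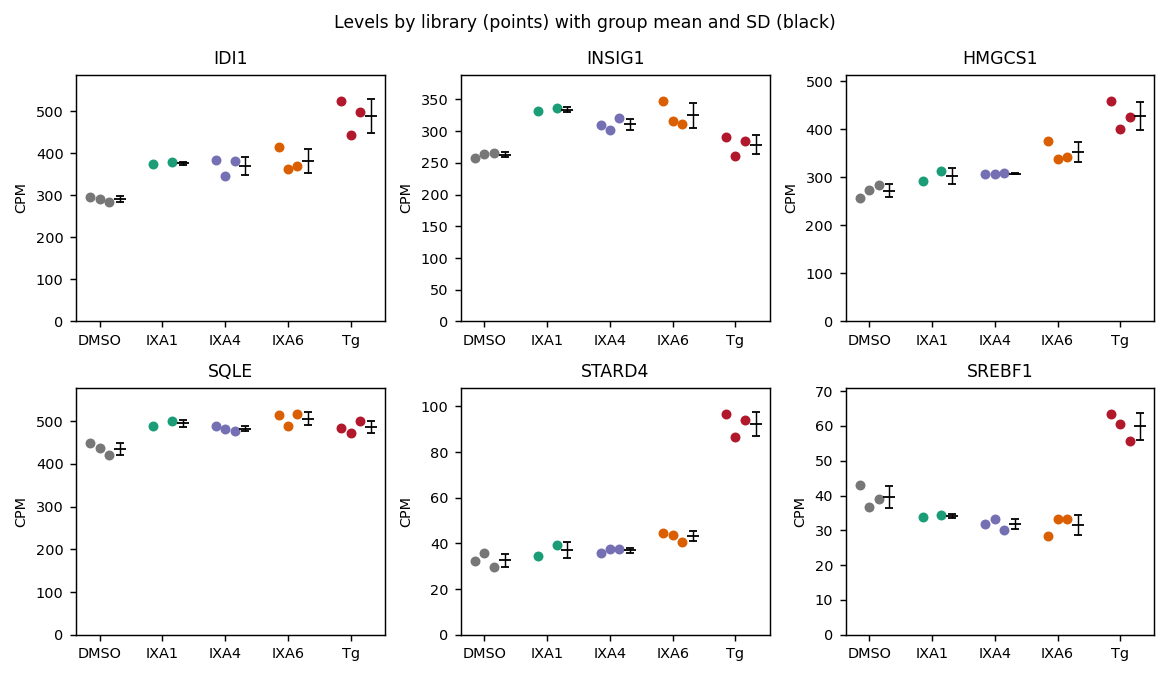
CPM of IDI1, INSIG1, HMGCS1, SQLE, STARD4 and SREBF1 in each library (points), by group, with the group mean and SD in black on axes that start at 0. IDI1 and INSIG1 lie above DMSO in all IXA libraries, INSIG1 comes down towards DMSO with Tg, and STARD4 and SREBF1 are highest with Tg.

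INSIG1, which retains SCAP and is itself an SREBP target, rose with the IXA compounds and not measurably with Tg. INSIG1 measured 258, 264 and 266 CPM with DMSO, 332 and 337 with IXA1, 309.7, 302 and 320.3 with IXA4, 348, 316 and 311 with IXA6 and 291, 261 and 285 with Tg. All IXA libraries stood above all DMSO libraries, and the Tg libraries overlapped with DMSO. The log2 fold change was 0.35 ± 0.06 (SE, adjusted p = 6.47e-04) with IXA1, 0.24 ± 0.05 (SE, adjusted p = 0.0131) with IXA4 and 0.31 ± 0.05 (SE, adjusted p = 7.76e-04) with IXA6. With Tg it was 0.09 (adjusted p = 0.191), and it passed when Tg replicate 2 was left out (0.13, adjusted p = 0.0466). Directly compared, INSIG1 was lower with Tg than in the mean of the IXA groups, by -0.21 ± 0.04 (SE, adjusted p = 2.76e-04). Leaving out DMSO replicate 1 or 2, or IXA4 replicate 1 or 3, ended the IXA4 call (adjusted p of 0.0581 to 0.118). INSIG2, its relative, was called in no comparison with DMSO, with log2 fold changes of -0.06, 0.16 and 0.04 with the IXA compounds and 0.26 (adjusted p = 0.069) with Tg, where leaving out Tg replicate 3 gave 0.34 (adjusted p = 0.0285).

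SREBF1 encodes SREBP-1a and SREBP-1c, which the gene-level counts do not separate. SREBF1 measured 43.0, 36.8 and 38.9 CPM with DMSO, 33.8 and 34.5 with IXA1, 31.9, 33.2 and 30.2 with IXA4, 28.3, 33.3 and 33.1 with IXA6 and 63.3, 60.6 and 55.6 with Tg. All IXA libraries lay below all DMSO libraries and all Tg libraries above them. The log2 fold change was -0.32 ± 0.08 (SE, adjusted p = 0.0487) with IXA4, -0.32 ± 0.08 (SE, adjusted p = 0.0249) with IXA6 and 0.60 ± 0.07 (SE, adjusted p = 7.44e-07) with Tg, and with IXA1 it was -0.21 (adjusted p = 0.22). The falls were near the threshold: the IXA4 call held without DMSO replicate 2 and was lost without any other 1 of its 6 libraries (adjusted p of 0.0829 to 0.275) and with upper-quartile factors (0.0666), and the IXA6 call was lost without DMSO replicate 1 (0.137), DMSO replicate 3 (0.0671) or IXA6 replicate 1 (0.176). Tg stood above the mean of the IXA groups by 0.88 ± 0.06 (SE, adjusted p = 2.83e-11). SREBF1 overlaps RAI1 by 556 bases on the other strand, and RAI1 was called lower with Tg (-0.31, adjusted p = 0.0204) and not called with any IXA compound.

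SREBF2 and SCAP were called in no comparison with DMSO. SREBF2 measured 259, 245 and 237 CPM with DMSO, 278 and 257 with IXA1, 255, 247 and 231 with IXA4, 229, 245 and 237 with IXA6 and 243, 267 and 247 with Tg. Every treated group overlapped with DMSO, while the IXA1 libraries lay above all IXA4 and IXA6 libraries. The log2 fold changes against DMSO ran from -0.06 (IXA6) to 0.11 (IXA1). For SCAP they ran from -0.11 (IXA6) to 0.02 (IXA1).

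STARD4, a cytosolic carrier of cholesterol, showed the largest change among the 33 genes. STARD4 measured 32.3, 35.7 and 29.7 CPM with DMSO, 34.7 and 39.4 with IXA1, 35.7, 37.5 and 37.7 with IXA4, 44.8, 43.8 and 40.6 with IXA6 and 96.6, 86.4 and 94.1 with Tg. All Tg libraries stood above all others, the IXA4 and IXA6 libraries stood above all DMSO libraries (IXA4 replicate 1 by less than the rounding of its value), and IXA1 overlapped with DMSO. It changed by 1.50 ± 0.07 (SE, adjusted p = 3.26e-14) with Tg and 0.40 ± 0.07 (SE, adjusted p = 0.00337) with IXA6, beside 0.19 (adjusted p = 0.283) with IXA1 and 0.18 (adjusted p = 0.427) with IXA4.

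In the fatty acid arm, 0 of 9 genes were called with each of the IXA compounds by edgeR, which for 9 genes is near the shares of all genes given above. Of all 33 members, 11, 10 and 12 had an unadjusted p below 0.05 with IXA1, IXA4 and IXA6. The shares of all genes were 15.5%, 9.18% and 17.0%. Among the 9 fatty acid genes the counts were 0, 0 and 1 (FASN), which for so few genes is not far from those shares. DESeq2 as run here also called 0 of the 9 with each IXA compound. The authors' deposited DESeq results did pass 2 of these genes. They were SCD with IXA1 (log2 fold change 0.12, adjusted p = 0.025) and FASN with IXA6 (-0.16, adjusted p = 0.0182). With Tg, 3 of the 9 were higher (the desaturases FADS1, FADS2 and SCD) and 2 lower (FASN and ELOVL6). Among all genes 18.8% were higher and 17.0% lower, which for 9 genes is not far from these counts. The calls depended on the scaling: with upper-quartile factors 1 of the 9 was higher (FADS1) and 3 lower (FASN, ELOVL6 and ACACA). Those of SCD, FADS2 and ELOVL6 also depended on single libraries, as given below. FASN encodes fatty acid synthase. FASN measured 564, 573 and 537 CPM with DMSO, 595 and 585 with IXA1, 540.1, 536 and 489.5 with IXA4, 477, 500.3 and 520.5 with IXA6 and 426, 534 and 468 with Tg. The Tg libraries all lay below the DMSO libraries but spanned a wide range, and the log2 fold change was -0.23 ± 0.06 (SE, adjusted p = 0.00553). With IXA1, IXA4 and IXA6 it was 0.08, -0.10 and -0.16 (adjusted p = 0.634, 0.692 and 0.174).

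SCD encodes the stearoyl-CoA desaturase. SCD measured 1404, 1354 and 1395 CPM with DMSO, 1449.6 and 1519.6 with IXA1, 1493, 1429 and 1395 with IXA4, 1342, 1384 and 1402 with IXA6 and 1475, 1564 and 1580.1 with Tg. The Tg libraries lay above all DMSO libraries by a small margin, 0.15 ± 0.05 (SE, adjusted p = 0.0134), which no longer passed when DMSO replicate 2 (adjusted p = 0.0619) or Tg replicate 3 (0.0511) was left out, or with upper-quartile factors (0.11, adjusted p = 0.0634). FADS1 measured 115, 112 and 119 CPM with DMSO, 118 and 119 with IXA1, 116, 117 and 115 with IXA4, 122, 120.1 and 126 with IXA6 and 137, 139 and 148 with Tg. FADS1, the delta-5 desaturase, was higher in all Tg libraries than in any other, at 0.29 ± 0.05 (SE, adjusted p = 3.07e-05). FADS2, the delta-6 desaturase, was called at 0.17 ± 0.06 (SE, adjusted p = 0.0271), and that call was lost in 4 of the 6 fits that left out a library (adjusted p of 0.0554 to 0.11), with upper-quartile factors (0.0983) and in a fit of the Tg and DMSO libraries alone (0.0637). FADS1 and FADS2 start near each other in opposite directions and overlap by 490 bases of exon, so their values may share reads.

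ELOVL6 elongates palmitate to stearate, and its log2 fold change with Tg was -0.26 ± 0.08 (SE, adjusted p = 0.00912). It no longer passed when DMSO replicate 3 was left out (adjusted p = 0.0633), or Tg replicate 2 (0.0674). ACACA, the carboxylase that makes malonyl-CoA, measured -0.13 (adjusted p = 0.0663) with Tg and passed without DMSO replicate 3 (-0.19, adjusted p = 0.0167) or Tg replicate 2 (-0.17, adjusted p = 0.0246), and with upper-quartile factors (-0.18, adjusted p = 0.0169). ACLY and ACSS2, which supply acetyl-CoA, and the phosphatase LPIN1 were called in no comparison with DMSO, with log2 fold changes from -0.07 (ACLY, IXA6) to 0.15 (LPIN1, Tg).

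Set side by side, the sterol arm stood higher than the fatty acid arm in all 11 treated libraries. The median log2 ratio of the 18 sterol genes to the DMSO mean was 0.10 and 0.12 in the IXA1 libraries, 0.12, 0.12 and 0.06 with IXA4, 0.15, 0.08 and 0.11 with IXA6, and 0.17, 0.20 and 0.20 with Tg. That of the 9 fatty acid genes was 0.03 and 0.05 with IXA1, 0.05, just under 0 and -0.01 with IXA4, -0.04 and otherwise just under 0 with IXA6, and -0.18, 0.04 and 0.09 with Tg. The difference between the arms was 0.07 and 0.06 with IXA1, 0.07, 0.12 and 0.07 with IXA4, 0.20, 0.08 and 0.11 with IXA6 and 0.35, 0.16 and 0.11 with Tg. These libraries are all set against the same DMSO mean, and the difference is a description without a test.

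From the fitted log2 fold changes, the medians of the sterol and fatty acid arms were 0.09 and 0.04 with IXA1, 0.11 and 0.01 with IXA4, 0.11 and -0.01 with IXA6, and 0.17 and -0.02 with Tg. In the sterol arm 4 genes were called higher with IXA1, 1 with IXA4 and 3 with IXA6, with 0 lower in each, and 10 were higher and 2 lower with Tg. The counts for the fatty acid arm were 0 with each IXA compound, and 3 higher and 2 lower with Tg. Among all genes 1.82%, 0.717%, 1.51% and 18.8% were called higher with IXA1, IXA4, IXA6 and Tg, and 0.491%, 0.0831%, 0.778% and 17.0% lower. With upper-quartile factors the Tg counts became 9 higher and 2 lower in the sterol arm and 1 higher and 3 lower in the fatty acid arm. The Tg difference of 0.20 rests in part on Tg replicate 1, whose fatty acid genes were low: without it, the fatty acid median was 0.09 and the difference 0.09. The IXA1 difference of 0.05 was 0.02 without DMSO replicate 1. With FDPS counted together with RUSC1-AS1, the sterol median with Tg was 0.14.

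**Figure D4:**
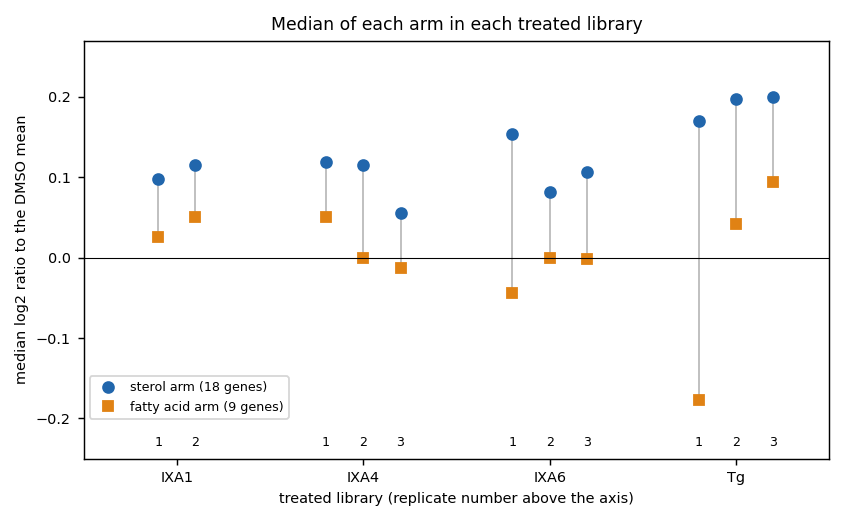
Median log2 ratio to the DMSO mean of the 18 sterol-arm genes (blue circles) and the 9 fatty acid genes (orange squares) in each treated library, joined by a line and ordered by compound and replicate. The circle lies above the square in all 11 libraries, and the widest gap is in Tg replicate 1.

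The IXA compounds were compared with each other within the 1 fit of all 14 libraries. DMSO is left out of these contrasts but adds to the estimate of the spread. Between IXA1 and IXA4, 0 members were called by edgeR, where 1.90% of all genes were higher and 0.680% lower with IXA1. An unadjusted p below 0.05 was found for 5 members, against 17.3% of all genes, and DESeq2 called 2 members. A fit of the IXA1 and IXA4 libraries alone called 4 members, 3 higher and 1 lower with IXA1. The matching share of all genes was not counted for either alternative. Between IXA4 and IXA6, 0 members were called and 0.00% of all genes in either direction. An unadjusted p below 0.05 was found for 3 members, against 9.23% of all genes, and DESeq2 called 0 members. The 95% intervals of the log2 difference between IXA4 and IXA6 reached at most 0.372 from 0 over all members. The widest of them extended 0.267 to each side of its estimate, and differences smaller than a member's own interval were not resolved.

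Between IXA1 and IXA6, DHCR7 and FASN were higher and HMGCS1 lower with IXA1, where 4.53% of all genes were higher and 2.82% lower. The log2 differences, IXA1 minus IXA6, were 0.24 ± 0.06 (SE, adjusted p = 0.0219) for DHCR7, 0.24 ± 0.07 (SE, adjusted p = 0.0349) for FASN and -0.22 ± 0.06 (SE, adjusted p = 0.0321) for HMGCS1. All 3 calls were absent without IXA1 replicate 1, IXA1 replicate 2 or IXA6 replicate 1, and 1 was left without IXA6 replicate 2.

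Tg was compared with the mean of the IXA groups in the same fit, a contrast that again leaves DMSO out. Of the members, 13 were higher with Tg and 6 lower, against 21.5% and 19.6% of all genes. Beside SREBF1 and INSIG1 above, STARD4 was higher by 1.25 ± 0.06 (SE, adjusted p = 7.24e-15), HSD17B7 by 0.62 ± 0.06 (SE, adjusted p = 3.33e-08), NSDHL by 0.58 ± 0.05 (SE, adjusted p = 8.79e-10), HMGCS1 by 0.42 ± 0.04 (SE, adjusted p = 4.83e-08) and IDI1 by 0.38 ± 0.05 (SE, adjusted p = 1.00e-06). MSMO1 was lower, by -0.36 ± 0.05 (SE, adjusted p = 2.99e-06), with all Tg libraries below all IXA libraries. EBP, ELOVL6, ACACA and FASN were the other members that were lower, by -0.17, -0.24, -0.14 and -0.17. SQLE did not pass this test, at -0.02 (adjusted p = 0.639), with a 95% interval from -0.10 to 0.05.

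Of the neighbouring lipid genes, in 5 further lists of 11 to 24 measured genes, 1, 0 and 2 were called higher with IXA1, IXA4 and IXA6 and 0 lower, near the shares of all genes (1.82%, 0.717% and 1.51% higher). Log2 fold changes that did not pass ran from -0.72 (IXA1) to 0.56 (IXA4) in the list of sterol transport. IXA1 raised AGPAT1 (a lysophosphatidic acid acyltransferase) by 0.31 ± 0.07 (SE, adjusted p = 0.0293), and IXA6 raised DBI (acyl-CoA binding protein) by 0.25 ± 0.05 (SE, adjusted p = 0.00665) and TMEM97 (a sterol-regulated ER membrane protein) by 0.17 ± 0.05 (SE, adjusted p = 0.0461). With Tg, the list of further SREBP machinery had 2 of 11 higher and 2 lower, led by RNF145, a ubiquitin ligase of the ER, which changed by -0.32 ± 0.07 (SE, adjusted p = 6.86e-04), ERLIN1, which rose by 0.23 ± 0.06 (SE, adjusted p = 0.00581), and PAQR3, a Golgi anchor of SCAP, which rose by 0.23 ± 0.06 (SE, adjusted p = 0.0041). Of 15 genes of sterol transport, 2 were higher and 2 lower with Tg. OSBP, which exchanges sterol for a phosphoinositide at the Golgi, rose by 0.85 ± 0.05 (SE, adjusted p = 3.82e-13), the ubiquitin ligase MYLIP changed by -0.59 ± 0.11 (SE, adjusted p = 1.41e-04), and GRAMD1A, a sterol carrier from the plasma membrane to the ER, by -0.25 ± 0.08 (SE, adjusted p = 0.011).

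Genes that draw on farnesyl diphosphate for other products also rose with Tg, 4 of 11, with 1 lower. NUS1 and DHDDS, the 2 subunits of the enzyme that makes the dolichol backbone, rose by 0.64 ± 0.05 (SE, adjusted p = 1.46e-09) and 0.46 ± 0.07 (SE, adjusted p = 1.86e-05). ICMT, which methylates prenylated proteins, was lower, by -0.24 ± 0.04 (SE, adjusted p = 8.41e-05). Of 24 genes of fatty acid elongation and activation, 5 were higher and 4 lower with Tg, among them the elongase ELOVL5, 0.46 ± 0.05 (SE, adjusted p = 4.43e-08), the lipogenesis factor MID1IP1, 0.31 ± 0.05 (SE, adjusted p = 7.03e-05), and the mitochondrial citrate carrier SLC25A1, -0.41 ± 0.07 (SE, adjusted p = 1.23e-04). Of 14 genes that lead fatty acids into glycerolipids, 2 were higher and 4 lower, with GPAT3 at 0.65 ± 0.14 (SE, adjusted p = 6.06e-04), LPIN3 at -0.41 ± 0.16 (SE, adjusted p = 0.047) and AGPAT3 at -0.40 ± 0.06 (SE, adjusted p = 1.44e-05). These counts stand beside 18.8% and 17.0% of all genes. The list medians with Tg were 0.04, 0.01, 0.14, -0.01 and -0.04 in the order given.

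In the authors' deposited table, 9, 5, 7 and 17 of the 33 genes had an adjusted p below 0.05 with IXA1, IXA4, IXA6 and Tg. These included all members called here with an IXA compound and 17 of the 19 called with Tg. The share of all genes below 0.05 in the deposited results was not counted. The numbers therefore only compare calls, and do not show whether the members stand out. The authors' deposited table also passed HMGCS1 (0.17), FDFT1 (0.15), SREBF1 (-0.27) and SCD (0.12) with IXA1, HMGCS1 (0.18) and SQLE (0.15) with IXA4, and FASN (-0.16) with IXA6, the values being its log2 fold changes. For IXA4, IXA6 and Tg its log2 fold changes differed from those here by at most 0.0025, and for IXA1 by up to 0.064.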

How the data were processed

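Libraries of HEK293T cells were grouped by their labels, with 2 used for IXA1 and 3 for every other group. The labels name 3 IXA1 samples, but no count column could be matched to IXA1 replicate 3. Of 15 count columns, 1 matches no sample title and was not used, and whether it holds IXA1 replicate 3 is not stated. The authors deposited raw counts per gene symbol, and a table with log2 fold changes and p-values. Per the submitters' processing notes the build was GRCh37.p13 and DESeq was used; the sources used here name no aligner, no counter and no strand setting. The reference group of the authors' deposited table is not named in it.

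Counts were tested in R 4.3.3 with edgeR 4.0.16: TMM factors, the default expression filter (0 genes removed), and quasi-likelihood tests from 1 fit of the 14 libraries, adjusted by Benjamini-Hochberg at 0.05 over 13243 genes within each of 8 comparisons. The 22 rows that bear a date in place of a name (0.249% to 0.282% of counts) stayed in. The table holds no gene with under 73 counts over the 14 libraries, and members had at least 96 in each. The biological coefficient of variation was 5.66%, and for 6 members of few reads counting error in their lowest library was larger (5.73% for MVK to 10.2% for TM7SF2). P-values set each group difference against the spread between these cultures, estimated from all 14 libraries in 1 fit. For IXA1, with 2 libraries, they lean on the spread of the other groups. The script was tested on simulated data. DESeq2 1.42.0, other scalings, a filter at 2 CPM, a minimum fold of 1.2, a replicate block, fits of the groups compared alone and leaving out each library were alternatives.

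Members and lists were chosen with earlier results of these data known. Values in every library are given for members called with at least 1.2-fold in either direction and for INSIG1, SREBF1, SREBF2, HMGCS1, FASN and SCD, and also for SQLE, chosen after its values were seen. Of other lists, the called members with the 3 largest changes are named. Of the markers of other cell types, 1 is not reported here. Exon overlaps are from GENCODE on GRCh38, and promoter windows from RefSeq.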

Additional observations from a re-analysis of the deposited data

How the results depend on the processing

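No result changed direction under any alternative while called. Under a minimum fold of 1.2, members called were 0, 0, 0 and 7 with IXA1, IXA4, IXA6 and Tg, 0 for IXA1 against IXA6 and 6 for Tg against the IXA mean, and all genes called were 22, 21, 25 and 1396. Fits of the groups compared alone called 5 members with IXA4, 4 for IXA1 against IXA4, and 648 and 198 genes with IXA1 and IXA4. DESeq2 called 2 members for IXA1 against IXA4. The sterol median with Tg was 0.133 under upper-quartile factors and 0.140 with FDPS and RUSC1-AS1 summed. With INSIG1 and STARD4 counted in the sterol arm, the IXA1 sterol median was 0.130 and the difference between arms 0.0864.

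Correlations of deviations from the group mean ran from -0.20 to 0.25 between libraries of the same replicate number (7 of 26 over 0.1). Between libraries of different numbers they ran from -0.34 to 0.31 (17 of 52 over 0.1). In groups of 2 or 3 libraries the deviations offset each other, so this check cannot decide whether replicate numbers pair the samples. With the replicate number as a block, 2 members were called with IXA1, where the arm difference was 0.0553, and SREBF1 was not called with IXA4 (adjusted p = 0.0711).

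Leaving out 1 library gave 1 to 2 members called with IXA1, 1 to 2 with IXA4, 4 to 6 with IXA6, 16 to 18 with Tg, 0 to 3 for IXA1 against IXA6 and 17 to 21 for Tg against the IXA mean. All genes called ranged over 82 to 181, 69 to 95, 118 to 319 and 3843 to 5009. The sterol median ranged over 0.0817 to 0.120 with IXA1, 0.0808 to 0.131 with IXA4, 0.103 to 0.157 with IXA6 and 0.159 to 0.192 with Tg, the fatty acid median over 0.0261 to 0.0635, -0.0102 to 0.0137, -0.022 to 0.0093 and -0.0699 to 0.0908, and the difference over 0.021 to 0.0707, 0.0885 to 0.127, 0.094 to 0.169 and 0.0869 to 0.232. The causes were not tested. The planned sum of HSD17B7 with its pseudogene was not run, as the pseudogene has no row here.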
